A study of Mus musculus with 10 samples.

Results

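The 10 antigen presentation genes described here were given as a list of probe set identifiers, and all 10 were found among the 16860 genes of the deposited table. They were H2-K1 (ENSMUSG00000061232_at), H2-D1 (ENSMUSG00000073411_at), B2m (ENSMUSG00000060802_at), Tap1 (ENSMUSG00000037321_at), Tap2 (ENSMUSG00000024339_at), Tapbp (ENSMUSG00000024308_at), Psmb8 (ENSMUSG00000024338_at), Cd74 (ENSMUSG00000024610_at), H2-Aa (ENSMUSG00000036594_at) and H2-Ab1 (ENSMUSG00000073421_at). The symbols are those given with the list. No table used here pairs the identifiers with names, so other genes of the pathway could not be looked up by name.

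Primary aortic smooth muscle cells of C57BL/6 mice aged 8 weeks, taken from the thoracic aorta and passaged at most 5 times in 10% serum, were profiled in 3 groups with 2 arrays each. Cells of the HDL group were given cholesterol (10 µg/mL, complexed 1 to 6 by moles with methyl-β-cyclodextrin) over 72 h, and then human HDL, that is, high-density lipoprotein, at 100 µg/mL over a further 72 h. Those of the cholesterol group had the same loading but were harvested at its end, and those of the baseline group had no stimulus. Values are log2 intensities from Robust Multichip Average (RMA) with the 3 groups normalized together, so a difference of 1 is a doubling, and array medians lay between 6.93 and 6.98. The labels do not say whether the arrays came from separate cultures, isolates or mice, so p-values reflect spread between these samples alone, and that spread may be technical. Carrier, time in culture and origin of the cells cannot be told apart from loading. No group with carrier alone, and none labelled as untreated over the same 72 h, was analysed here. Nor do the labels say from which isolate each array came. Likewise, HDL cannot be told apart from the later harvest at 144 h. Markers of smooth muscle and of leukocytes were not checked, for want of gene names. In RNA from whole cultures, a change in the share of cells that express a gene and a change per cell cannot be told apart.

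Class I molecules of the major histocompatibility complex (MHC) show peptides from inside the cell to CD8+ T cells, and nearly all nucleated cells make them. Peptides cut by the proteasome are pumped into the endoplasmic reticulum, loaded with the help of tapasin onto a heavy chain paired with beta-2-microglobulin, and carried to the surface. Class II molecules show peptides taken up from outside to CD4+ T cells and are made mainly by dendritic cells, B cells and macrophages, while other cells can make them after interferon-gamma. In mice, 8 of the 10 genes lie on chromosome 17, where the MHC is, while B2m and Cd74 lie elsewhere. In RefSeq's order of protein-coding genes (assembly GRCm38.p6) Tap1, Psmb8 and Tap2 follow each other directly, and H2-Ab1 and H2-Aa are neighbours.

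The promoters of the class I genes are known to carry kappaB, interferon-response and CCAAT-type elements. RefSeq's promoter windows of 300 bases, 250 before and 50 after the start site, were found by symbol for 7 of the 10 genes. For H2-K1, which has 2 such windows, the first one listed was used. Of these, 4 are printed because their genes stand for the different courses described below: H2-K1 (chr17:34000298-34000597, minus strand) and B2m (chr2:122147437-122147736, plus strand) rose with loading, Psmb8 (chr17:34197945-34198244, plus strand) rose with loading and again after HDL, and Tap1 (chr17:34187306-34187605, plus strand) rose after HDL. All are on GRCm38.p6, 5′ to 3′ on the gene's strand, with matches to the motifs below in capitals.
H2-K1: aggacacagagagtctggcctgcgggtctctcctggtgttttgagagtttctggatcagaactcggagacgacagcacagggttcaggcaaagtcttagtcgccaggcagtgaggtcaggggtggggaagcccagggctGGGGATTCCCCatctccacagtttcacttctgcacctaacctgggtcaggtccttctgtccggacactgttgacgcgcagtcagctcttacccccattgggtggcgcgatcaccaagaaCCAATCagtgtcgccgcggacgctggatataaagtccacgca
B2m: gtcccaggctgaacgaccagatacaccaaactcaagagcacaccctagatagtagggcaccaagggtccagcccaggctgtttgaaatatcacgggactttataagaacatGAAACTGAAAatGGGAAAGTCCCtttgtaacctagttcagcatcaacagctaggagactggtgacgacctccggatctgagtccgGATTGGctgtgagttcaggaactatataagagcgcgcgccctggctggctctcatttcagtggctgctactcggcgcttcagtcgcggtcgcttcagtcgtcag
Psmb8: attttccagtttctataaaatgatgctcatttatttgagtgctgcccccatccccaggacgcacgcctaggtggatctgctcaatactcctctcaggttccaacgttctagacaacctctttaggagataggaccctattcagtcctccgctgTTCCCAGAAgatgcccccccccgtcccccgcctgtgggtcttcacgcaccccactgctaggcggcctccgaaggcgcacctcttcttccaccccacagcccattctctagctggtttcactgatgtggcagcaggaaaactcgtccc
Tap1: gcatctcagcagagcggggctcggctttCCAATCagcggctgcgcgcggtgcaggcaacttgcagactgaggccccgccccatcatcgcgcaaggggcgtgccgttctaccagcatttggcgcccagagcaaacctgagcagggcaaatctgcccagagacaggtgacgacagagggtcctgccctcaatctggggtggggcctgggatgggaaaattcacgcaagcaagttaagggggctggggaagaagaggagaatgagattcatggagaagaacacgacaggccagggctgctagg

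The motifs were searched on both strands as plain letter patterns, and only exact matches were counted. A window without a match may therefore still hold a variant of that element. A kappaB pattern, GGGANNNNCC, was found in 4 of the 7 windows, those of H2-K1, H2-D1, B2m and H2-Aa, against 20.7% of 32851 mouse windows. In each of the 4 windows it matched on both strands at overlapping positions, which is 1 place and not 2. The windows of H2-K1 and H2-D1 are near copies (89.5% of aligned bases identical, gaps left out), so their matches are not independent. Shares over all windows count every window of a gene, while each gene here is counted once. An interferon-stimulated response element pattern, GAAANNGAAA, was found in 1 window, that of B2m from position -139 to -130, against 3.44% of all windows. It lies just upstream of the kappaB match, which begins at -127. A gamma-activated site pattern, TTCNNNGAA, was found in 1 window, that of Psmb8 at -97 to -89, against 8.30% of all windows. The CCAAT-type Y box pattern, GATTGG, was in 5 windows, those of H2-K1, H2-D1, B2m, Tap1 and H2-Aa, against 16.1%. These matches are not placed alike. In H2-K1 the match lies past the start site, at positions 9 to 14, and in Tap1 at -222 to -217. It lies at -53 to -48 in H2-D1, -54 to -49 in B2m and -49 to -44 in H2-Aa. The kappaB match on the gene's strand begins at -110 in H2-K1 and at -170 in H2-D1. Tapbp had none of the 4 patterns. A match is a description of the letters. Whether a match bears on any change in RNA was not tested.

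**Figure D1:**
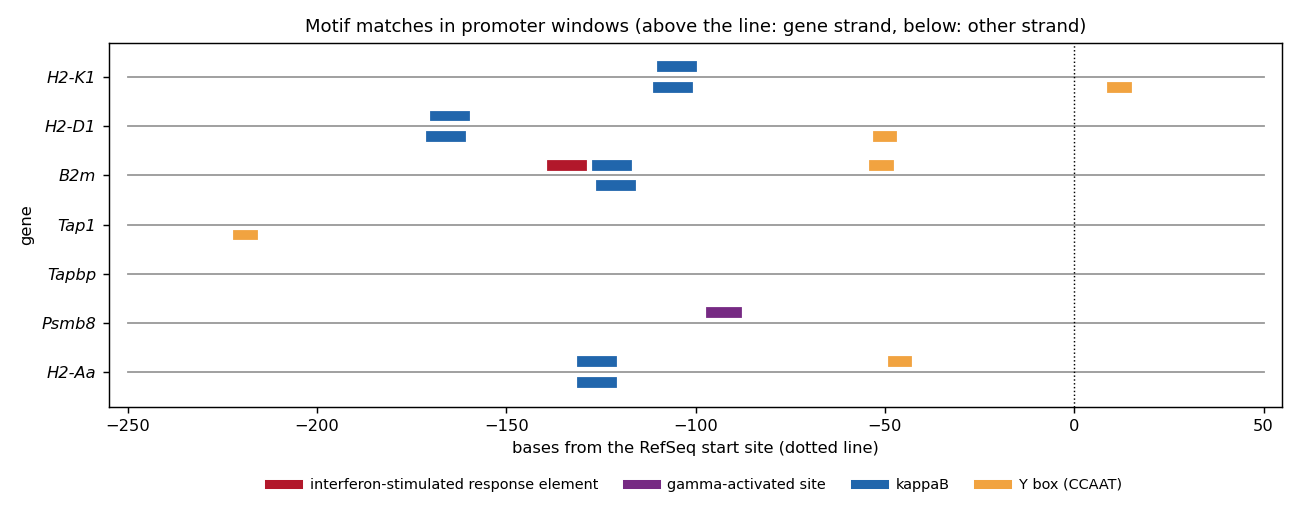
Positions of the 4 motif patterns in the RefSeq promoter windows of 7 genes, in bases from the start site (horizontal axis), with matches on the gene's strand above each line and on the other strand below. Overlapping kappaB matches are seen in 4 genes and a gamma-activated site pattern in Psmb8.

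Loading with cholesterol was followed by higher RNA of the class I heavy chains, beta-2-microglobulin, tapasin and the immunoproteasome subunit, while RNA of the peptide transporter and of 2 of the 3 class II genes showed little difference, and the remaining class II gene, H2-Ab1, was not called in the fit of 3 groups. With limma over all genes, 5 of the 10 members rose, 0 fell and 5 were not called at an adjusted p under 0.05, where 23.5% of all genes were called, 10.4% higher and 13.1% lower. All 5 that rose are among the 7 members of class I presentation, that is, H2-K1, H2-D1, B2m, Tap1, Tap2, Tapbp and Psmb8. The median change of the 10 members was 0.92, against -0.03 over all genes. Groups did not overlap, with cholesterol higher, for 7 members, against 28.1% of all genes, and with cholesterol lower for 0 members, against 35.4%. A one-way analysis of variance gene by gene, with no spread shared between genes, called 0 members and 3 of all genes, while 5 members and 28.1% of all genes had an unadjusted p under 0.05.

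H2-K1 encodes a class I heavy chain, the polymorphic part that holds the peptide. It read 13.09 and 13.05 on the cholesterol arrays, against 10.47 and 10.39 on the baseline arrays. The groups are far apart and replicates close together. The rise was 2.64 ± 0.13 on the log2 scale (SE), or 6.23-fold with a 95% interval of 5.03 to 7.71 (limma adjusted p = 4.23e-05), and was number 71 of 16860 genes in order of rise. H2-D1, the other heavy chain, read 13.24 and 13.31 with cholesterol, against 11.27 and 11.27 at baseline. Here too no cholesterol array comes near a baseline array. It rose by 2.00 ± 0.09 (SE), or 4.01-fold (3.44 to 4.68, limma adjusted p = 3.47e-05). Heavy chain genes are close copies of each other. The promoter windows of H2-K1 and H2-D1 were identical at 214 of 239 aligned bases (89.5%), against 62.9% between H2-K1 and B2m. Gaps were left out, and likeness of promoters does not measure likeness of the transcripts that probe sets read. How far each probe set also reads the other gene or further class I genes was not tested, so the separate sizes are uncertain.

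B2m encodes the invariant light chain of class I molecules. Its values were 14.45 and 14.54 on cholesterol arrays, against 13.71 and 13.85 on baseline arrays. All arrays are near the top of the scale, whose highest values lay between 14.91 and 15.09, and the groups still do not overlap. The rise was 0.72 ± 0.09 (SE), or 1.64-fold (1.41 to 1.92, limma adjusted p = 0.00202). Tapbp encodes tapasin, which holds empty class I molecules at the peptide transporter. It measured 10.63 and 10.61 with cholesterol, against 9.19 and 9.29 at baseline. Replicates differ by at most 0.10, far less than the gap between groups. The rise was 1.38 ± 0.09 (SE), or 2.60-fold (2.23 to 3.04, limma adjusted p = 0.000157).

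Psmb8 encodes a catalytic subunit that replaces a standard one in the immunoproteasome and shifts which peptides are cut. Its cholesterol arrays read 9.52 and 9.83, against 7.52 and 7.52 on baseline arrays. The cholesterol replicates differ by more than the baseline replicates but the groups stay well apart. The rise was 2.16 ± 0.13 (SE), or 4.45-fold (3.62 to 5.48, limma adjusted p = 8.48e-05).

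Tap1 and Tap2 encode the paired subunits of the transporter that brings peptides into the endoplasmic reticulum. Tap1 read 7.95 and 8.16 with cholesterol, against 7.92 and 7.99 at baseline, and the groups overlap. Its change was 0.10 with an interval of -0.14 to 0.34 (limma adjusted p = 0.570). Tap2 read 8.18 and 8.19 with cholesterol, against 8.12 and 8.17 at baseline, a gap of only 0.01 between the nearest arrays. Its change was 0.04 with an interval of -0.16 to 0.24 (limma adjusted p = 0.795). The upper bounds correspond to 1.26-fold for Tap1 and 1.18-fold for Tap2, below the lower bounds of the rises of H2-K1, H2-D1, B2m, Tapbp and Psmb8 in the same fit. A difference between genes was not itself tested.

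Class II genes gave 0 calls out of 3 with loading. Cd74 encodes the invariant chain that guards the class II groove until peptide is loaded. It read 6.25 and 6.41 on the cholesterol arrays, against 6.29 and 5.97 on the baseline arrays, and the groups overlap. The change was 0.20 with an interval of -0.11 to 0.51 (limma adjusted p = 0.341). H2-Aa, the class II alpha chain, read 5.51 and 5.41 with cholesterol, against 5.46 and 5.45 at baseline. All its arrays stay within a narrow band, and the change of 0.0027 had an interval of -0.23 to 0.24 (limma adjusted p = 0.989). On all 6 arrays Cd74 lay between the 39.1st and 43.7th percentile of genes and H2-Aa between the 29.4th and 32.8th. The deposited table holds no detection calls, so whether these low values are above background is unknown.

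H2-Ab1 encodes the class II beta chain, the partner of H2-Aa. Cholesterol arrays read 6.66 and 5.83, against 5.15 and 5.07 on baseline arrays. Both cholesterol arrays lie above both baseline arrays, but they differ from each other by 0.83, which was number 37 of 16860 genes by size of the difference between cholesterol replicates. The change of 1.13 ± 0.65 (SE, interval -0.39 to 2.66) did not pass (limma adjusted p = 0.277). The spread in that fit is shared with the HDL arrays, which differ even more for this gene. With the cholesterol and baseline arrays alone, the adjusted p was 0.0116 for the same change, and the separate normalization of these arrays gave a change of 1.21 (limma adjusted p = 0.0194). It was called in 4 of 16 settings tried, with changes between 0.72 and 1.55. Leaving out either HDL array gave the same result as the cholesterol and baseline arrays alone, so those calls are not separate.

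**Figure D2:**
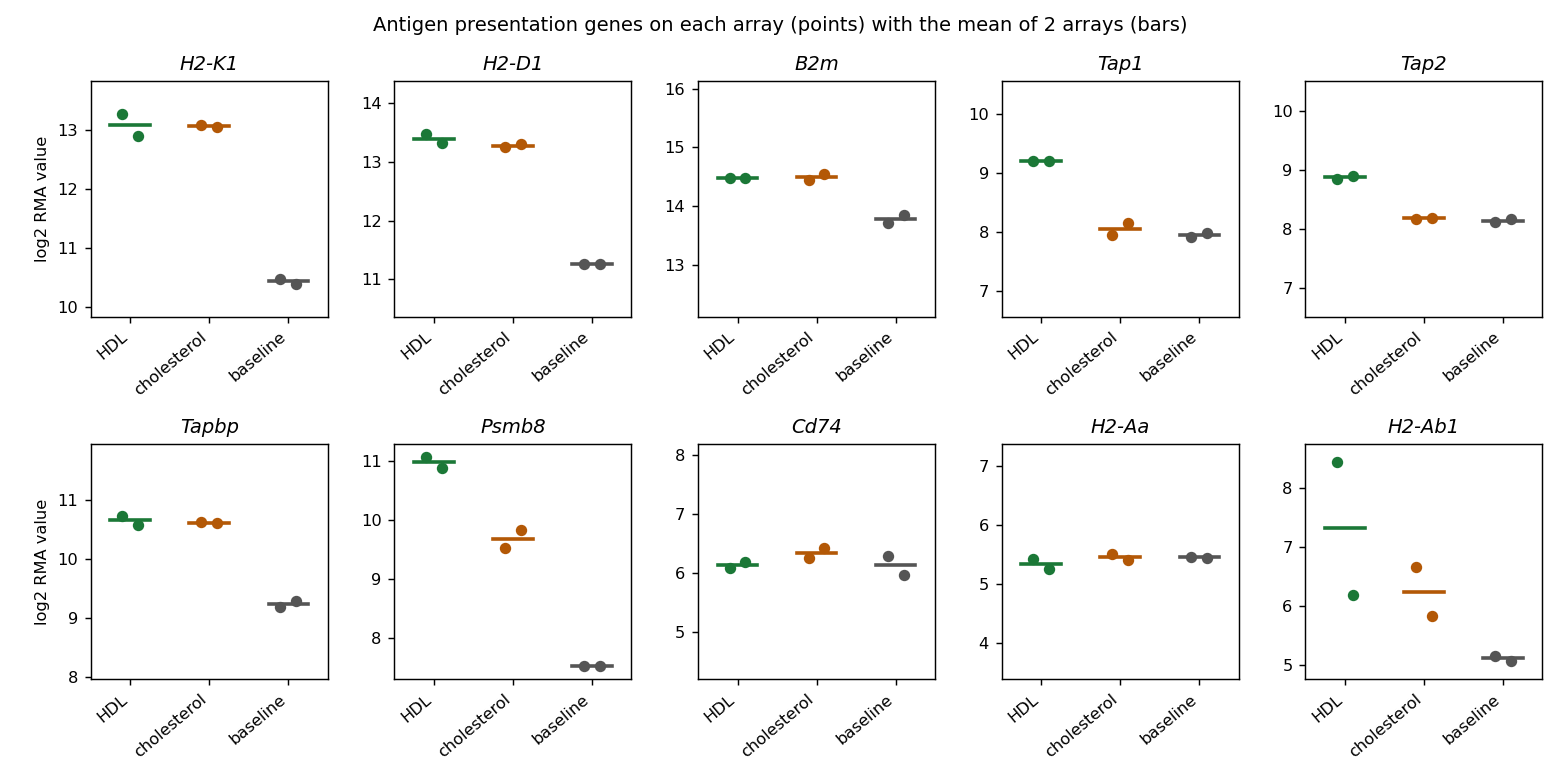
Log2 RMA value (vertical axis, a span of 4 units in every panel) of the 10 genes on each array (points) in the HDL, cholesterol and baseline groups, with the mean of 2 arrays as a bar. H2-K1, H2-D1, B2m and Tapbp are high in both treated groups, Tap1 and Tap2 only on the HDL arrays, Psmb8 stands at 3 levels, and H2-Ab1 has an HDL array at 8.44 and another at 6.19.

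After HDL the peptide transporter genes and the immunoproteasome subunit were higher than on the cholesterol arrays, while the heavy chains, beta-2-microglobulin and tapasin kept values close to those of loaded cells. In all, 3 of the 10 members rose, 0 fell and 7 were not called (limma, adjusted p under 0.05), where 2.73% of all genes were called, 1.79% higher and 0.949% lower. The median change of the members was 0.08, against 0.0037 over all genes. The 3 that rose, Tap1, Psmb8 and Tap2, are the run of neighbouring genes named above. Groups did not overlap for 4 members with HDL higher and for 1 with HDL lower, against 24.7% and 22.4% of all genes. The gene-by-gene analysis of variance called 0 members and 0 of all genes, while 3 members and 9.35% of all genes had an unadjusted p under 0.05.

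Tap1 read 9.21 and 9.21 on the HDL arrays, against 7.95 and 8.16 on the cholesterol arrays. The HDL arrays agree to within 0.01 and stand more than 1 unit above the higher cholesterol array. The rise was 1.16 ± 0.10 (SE), or 2.24-fold (1.90 to 2.64, limma adjusted p = 0.00268). For Tap2, the HDL arrays read 8.86 and 8.91, against 8.18 and 8.19 on the cholesterol arrays. Replicates are again close and the groups apart by 0.67. It rose by 0.70 ± 0.08 (SE), or 1.63-fold (1.42 to 1.87, limma adjusted p = 0.00987). This call was lost when a cholesterol array was left out, with adjusted p = 0.101 without replicate 1 and 0.0762 without replicate 2 in limma, at changes of 0.69 and 0.71. Over all settings tried the adjusted p lay between 0.00853 and 0.392.

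Psmb8 read 11.07 and 10.89 with HDL, against 9.52 and 9.83 with cholesterol. Every HDL array exceeds every cholesterol array by more than 1 unit. The rise was 1.30 ± 0.13 (SE), or 2.46-fold (2.00 to 3.03, limma adjusted p = 0.00433). Of the 10 members, Psmb8 alone rose both with loading and again after HDL, as did 0.451% of all genes. Both comparisons use the cholesterol arrays.

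H2-K1 read 13.27 and 12.90 with HDL, against 13.09 and 13.05 with cholesterol. The cholesterol values lie inside the HDL range. The change was 0.02 with an interval of -0.29 to 0.33 (limma adjusted p = 0.968). For H2-D1 the HDL arrays read 13.47 and 13.32, against 13.24 and 13.31, and the change of 0.12 had an interval of -0.10 to 0.34 (limma adjusted p = 0.582). B2m read 14.48 and 14.47 with HDL, against 14.45 and 14.54, a change of -0.02 with an interval of -0.24 to 0.20 (limma adjusted p = 0.956). Tapbp read 10.73 and 10.59 with HDL, against 10.63 and 10.61, a change of 0.04 with an interval of -0.18 to 0.26 (limma adjusted p = 0.891). For these 4 genes a fall of more than 0.29 on the log2 scale lies outside the 95% interval, while their rises with loading were between 0.72 and 2.64.

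Class II genes again gave 0 calls. Cd74 read 6.08 and 6.19 with HDL, against 6.25 and 6.41 with cholesterol. Both HDL arrays are lower, but the change of -0.20 had an interval of -0.51 to 0.11 (limma adjusted p = 0.488). H2-Aa read 5.43 and 5.26, against 5.51 and 5.41, a change of -0.12 with an interval of -0.35 to 0.12 (limma adjusted p = 0.610).

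For H2-Ab1 the HDL arrays read 8.44 and 6.19, against 6.66 and 5.83 on the cholesterol arrays. Replicate 1 is far above every other array, and replicate 2 falls between the cholesterol arrays. The difference of 2.25 between the HDL replicates was number 2 of 16860 genes, where 0.907% of genes differed by at least 1. The change of 1.07 ± 0.65 (SE) did not pass (limma adjusted p = 0.447). It was 2.20 (limma adjusted p = 0.00559) without HDL replicate 2 and -0.05 (limma adjusted p = 0.963) without HDL replicate 1, so its direction rests on 1 array. It was called in 1 of 14 settings tried, with adjusted p between 0.00559 and 0.963. Replicate 1 was also the higher one for H2-Ab1 in the cholesterol group, by 0.83. At baseline it was higher by only 0.09, an ordinary difference (number 8920 of 16860 genes by size). Cd74 and H2-Aa differed between the HDL replicates by only -0.11 and 0.17 (replicate 1 minus replicate 2). Neither reading moved with H2-Ab1 on HDL replicate 1, but whether their low values are above background is unknown.

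**Figure D3:**
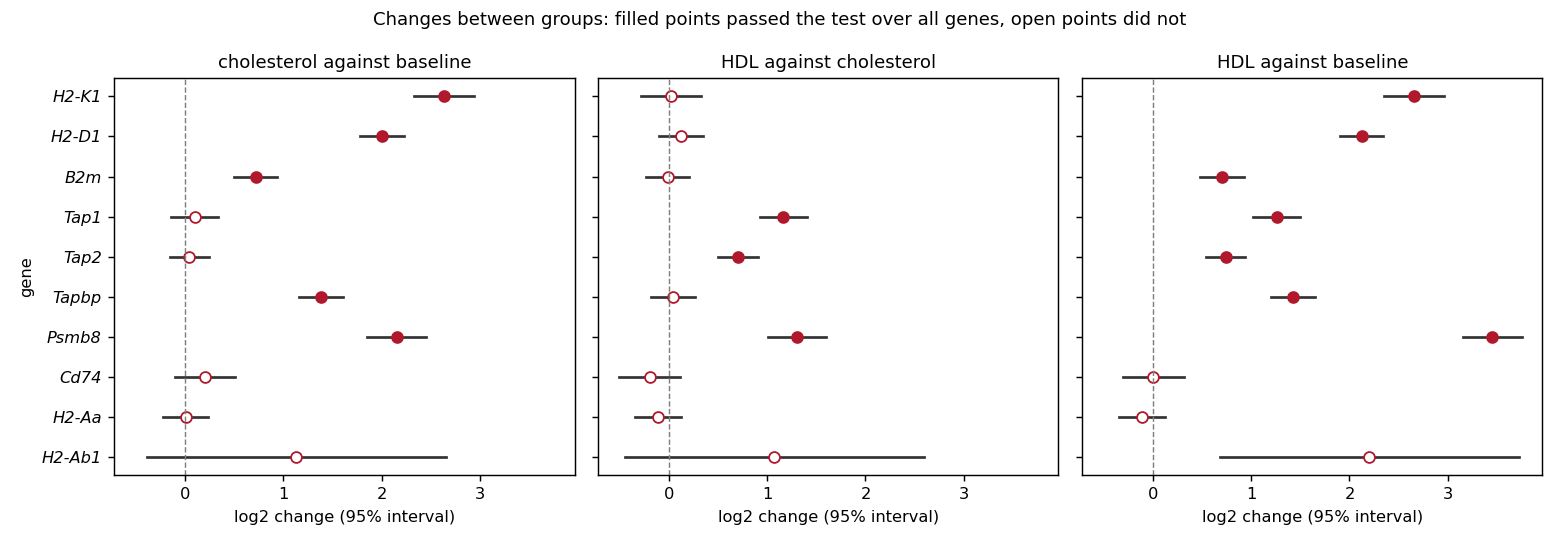
Log2 change (points) with 95% interval (lines) of the 10 genes in cholesterol against baseline, HDL against cholesterol and HDL against baseline, from the limma fit of 3 groups. Filled points had an adjusted p under 0.05 over all genes: 5, 3 and 7 genes, while the line of H2-Ab1 is the widest in every panel.

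Whether the loading step and the HDL step changed a gene to the same extent was tested in the same fit, as the change from cholesterol to HDL minus the change from baseline to cholesterol. This contrast was added with the values known, and both of its terms use the cholesterol arrays. It passed for 7 of the 10 members, where 13.7% of all genes passed, with 2 members positive (7.56% of all genes) and 5 negative (6.14%). For Tap1 the HDL step was larger by 1.06 ± 0.17 (SE, limma adjusted p = 0.00943) and for Tap2 by 0.66 ± 0.15 (SE, limma adjusted p = 0.0275). The loading step was larger for H2-K1, with a difference of -2.62 ± 0.23 (SE, limma adjusted p = 0.00108), and for H2-D1, with -1.89 ± 0.16 (SE, limma adjusted p = 0.00108). The same held for Tapbp (-1.34 ± 0.16, limma adjusted p = 0.00333) and B2m (-0.73 ± 0.16, limma adjusted p = 0.0275). B2m already read 14.45 and 14.54 on the cholesterol arrays, near the top of the scale. How far this limited a further rise after HDL was not tested. Psmb8, which rose at both steps, rose more at the loading step by this test (-0.86 ± 0.22, limma adjusted p = 0.0451). Only H2-K1 and H2-D1 still passed without cholesterol replicate 1, where Tap1 had adjusted p = 0.109, Tap2 0.196, Tapbp 0.0519, B2m 0.133 and Psmb8 0.0699 in limma. The call of Psmb8 was also lost without any of the other arrays except HDL replicate 1, with the replicate block (limma adjusted p = 0.0644) and with quantile normalization (limma adjusted p = 0.0520), and those of B2m and Tap2 without either baseline array or cholesterol replicate 2.

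**Figure D4:**
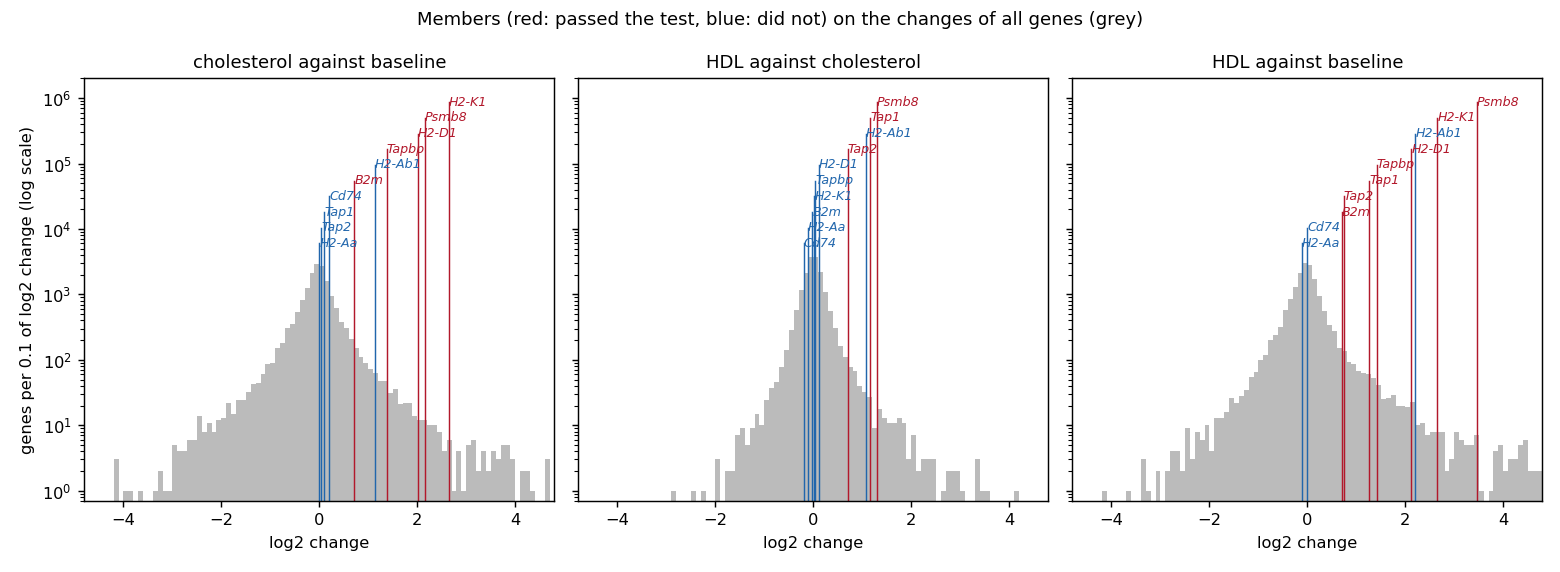
Log2 changes of the 10 genes (vertical lines, red where the test was passed and blue where not) over the distribution of all 16860 genes (grey, number of genes per 0.1 on a log axis), for the 3 comparisons. The axes end at 4.8 in either direction, beyond which lie 18, 0 and 16 genes. After loading the heavy chains and Psmb8 are far to the right. After HDL Psmb8, Tap1 and Tap2, which passed the test, are to the right, and so is H2-Ab1, which did not pass.

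Against baseline, HDL-treated cells had higher RNA of all 7 members of class I presentation, from the heavy chains to the peptide transporter. Of the 3 class II genes, 0 passed the test. In all, 7 of 10 members rose and 0 fell (limma, adjusted p under 0.05), where 20.0% of all genes were called, 9.13% higher and 10.9% lower. The median change was 1.34, against -0.02 over all genes. Groups did not overlap, with HDL higher, for 8 members, against 25.8% of all genes, and with HDL lower for 1, H2-Aa, against 33.3%. The gene-by-gene analysis of variance called 0 members and 0 of all genes, while 7 members and 20.1% of all genes had an unadjusted p under 0.05. This comparison uses the same arrays as the comparisons before it and is no independent support for them.

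Psmb8 showed the largest difference among the members, with 11.07 and 10.89 on HDL arrays, against 7.52 and 7.52 on baseline arrays. It was higher by 3.46 ± 0.13 (SE), or 11.0-fold (8.92 to 13.5, limma adjusted p = 1.08e-05), number 54 of 16860 genes. The heavy chains stood 2.66 ± 0.13 higher for H2-K1 (limma adjusted p = 3.56e-05) and 2.12 ± 0.09 higher for H2-D1 (limma adjusted p = 2.41e-05). Tapbp was higher by 1.42 ± 0.09 (limma adjusted p = 0.000113) and B2m by 0.70 ± 0.09 (limma adjusted p = 0.00282). The transporter genes were higher by 1.26 ± 0.10 for Tap1 (limma adjusted p = 0.000264) and 0.74 ± 0.08 for Tap2 (limma adjusted p = 0.00136). All these errors are SE, with 2 arrays in each group.

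Of the class II genes, Cd74 differed by 0.0014 (interval -0.31 to 0.31) and H2-Aa by -0.11 (interval -0.35 to 0.12), and neither passed (limma adjusted p = 0.997 and 0.495). H2-Ab1 read 8.44 and 6.19 with HDL, against 5.15 and 5.07 at baseline. Both HDL arrays are above both baseline arrays by at least 1.04. The difference of 2.20 ± 0.65 (SE) stood at a limma adjusted p of 0.0539, just above the threshold. It was 1.08 (limma adjusted p = 0.0486) without HDL replicate 1 and 3.33 (limma adjusted p = 0.000304) without HDL replicate 2, and with the replicate block it was 2.20 (limma adjusted p = 0.0193). With dim genes left out, limma gave an adjusted p of 0.0494. The test was not passed in the other 10 of 14 settings, among them the HDL and baseline arrays alone (limma adjusted p = 0.0823) and without baseline replicate 1 (0.201) or 2 (0.219). Over all 14 settings the adjusted p lay between 0.000304 and 0.427.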

How the data were processed

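The 6 arrays were Affymetrix Mouse Genome 430 2.0, hybridised with RNA of smooth muscle cells from mouse aorta. The authors, per the labels, made the deposited log2 values with Robust Multichip Average and a custom probe mapping to Ensembl genes (release 59). The RMA version is not given in the sources used here. Analysis (II), which holds all 3 groups, was used throughout, and analysis (I), the 4 baseline and cholesterol arrays normalized apart, served as an alternative only. Because RMA forces a common distribution, values are relative within an analysis, and dim genes show compressed changes. With 2 arrays per group, precision is limited by their number.

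Groups were compared by moderated linear models (R 4.3.3, limma 3.58.1, no filter, two-sided, 3 groups in one fit with 3 residual and 4.03 prior degrees of freedom), with Benjamini-Hochberg adjustment over 16860 genes and a threshold of 0.05. The script was tested on simulated data. Promoter windows are RefSeq's (GRCm38.p6), aligned with Biopython 1.88. The rule for the members names identifiers and no measured value, but members, lists, motifs and tests were chosen with earlier results of these data known. All members were named. The reference table matched 0 Ensembl identifiers, so the listed pathway genes and cell type markers, given by symbol, were not tested.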

Additional observations from a re-analysis of the deposited data

How the results depend on the processing

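The 5, 3 and 7 members called for cholesterol against baseline, HDL against cholesterol and HDL against baseline kept their direction under all alternatives run. They stayed called with the groups compared fitted alone, a replicate block, a trended and robust prior, dim genes left out, array medians subtracted and quantile normalization. H2-Ab1 was also called for cholesterol against baseline with the groups compared fitted alone, and for HDL against baseline with the replicate block and with dim genes left out. For cholesterol against baseline, limma on the values of analysis (I) called 6 members and 4919 genes. Those 6 were the same 5 members and H2-Ab1 (limma adjusted p = 0.0194). The one-way test per gene named by the design text, with 2 residual degrees of freedom, called 0, 0 and 0 members and 3, 0 and 0 genes, with 5, 3 and 7 members and 4746, 1577 and 3391 genes at an unadjusted p under 0.05. On the values of analysis (I), an alternative chosen after seeing the data, it called 0 members and 38 genes for cholesterol against baseline (5 members and 4844 genes unadjusted), with adjusted p between 0.0600 and 0.0972 for the 5 members. Requiring a change of at least 1, a stricter rule by construction, left 949, 170 and 899 genes and took B2m and Tap2 out of the members called. It left 4 members and 1362 genes for the difference of the steps. The cholesterol and HDL arrays fitted alone called 145 genes. On leaving out single arrays, a group then holding 1 array borrows its spread from the rest, and members called ranged from 5 to 6, 2 to 4 and 7 to 8, and all genes called from 1861 to 4915, 74 to 1656 and 1263 to 4256. For the difference of the steps these ranges were 2 to 7 members and 482 to 3083 genes. The replicate numbers of the arrays are not said to mark a shared culture or day, and deviations of same-numbered arrays correlated across genes by 0.13 for HDL and cholesterol, 0.0053 for HDL and baseline and 0.02 for cholesterol and baseline. With the replicate block 5, 3 and 8 members were called, and 6 for the difference of the steps, where Psmb8 was lost. No depth is recorded for arrays, and no detection call bounds the dim class II genes. Alternatives for the pathway list were not run, since its symbols could not be matched.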
